A study of Mus musculus with 6 samples.

Results

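Branched-chain amino acid oxidation was followed through 10 genes, chosen by symbol from the 20107 genes of a liver count table: Bcat2, Bckdha, Bckdhb, Dbt, Dld, Bckdk, Ppm1k, Ivd, Mccc1 and Hibadh. All 10 were found, and all 10 passed the filter on low counts that left 14896 genes to be tested. The livers came from 6 wild-type male C57BL/6N littermates (Envigo) aged 16 weeks, with 3 libraries per diet. From 8 weeks of age, for 8 weeks, mice ate freely of either chow or HFHC, a high-fat, high-calorie diet with fructose in the food and a high-fructose drink. HFHC libraries 1 to 3 and Chow libraries 7 to 9 are named by the numbers in their labels.

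Leucine, isoleucine and valine first lose their amino group to a transaminase, and the resulting ketoacids enter the mitochondrial branched-chain ketoacid dehydrogenase, whose decarboxylation commits them to breakdown. A dedicated kinase (Bckdk) phosphorylates and switches off this complex, and a dedicated phosphatase (Ppm1k) switches it on again. Liver is known for little transaminase and much dehydrogenase activity, so it takes up ketoacids that other tissues release. After the complex the 3 amino acids follow separate routes to acetyl-CoA, acetoacetate or propionyl-CoA.

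Levels below are CPM, counts scaled to a common library size, with sizes scaled by TMM, an edgeR method that aligns most genes between libraries. Differences are log2 fold changes, HFHC over Chow, with a standard error (SE) or a 95% confidence interval. The test was the quasi-likelihood F test of edgeR, p values were adjusted by the Benjamini-Hochberg method across the 14896 genes, and a gene is called at an adjusted p under 0.05. Errors after ± on a level are SDs of n = 3 libraries. Liver is a mixture, so fewer cells of a type and less RNA per cell cannot be told apart.

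None of the 10 genes was called. Of all tested genes 6.67% were called (3.38% higher and 3.30% lower in HFHC), so none among 10 does not set these genes apart. The smallest adjusted p values belonged to Ivd (0.0556), Dbt (0.0587) and Ppm1k (0.0671), each with a lower mean in HFHC. At an unadjusted p under 0.05 there were 4 of the 10, namely these and Bckdk, against 22.2% of all tested genes. Libraries of the diets did not overlap for 3 of the 10 (Dbt, Bckdk and Ivd), against 27.8% of all tested genes. The median log2 fold change was -0.05 over the 10 and -0.00 over all tested genes. For 8 of the 10 the 95% interval lay within 1.5-fold in either direction, the exceptions being Dbt and Ppm1k. The same held for 9235 of the 14896 tested genes. The call depended on the tool: DESeq2 and limma-voom with sample weights each called Dbt, Ivd and Ppm1k lower (8.62% and 10% of all genes called), whereas limma-voom without weights called none of the 10 (6.40%). With the trends of each library on GC content and length removed, Dbt and Ivd were called lower (5.67% of all genes). Without HFHC library 3 Dbt was called (4.55%), and without Chow library 8 Dbt and Ppm1k were (7.09%).

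**Figure D1:**
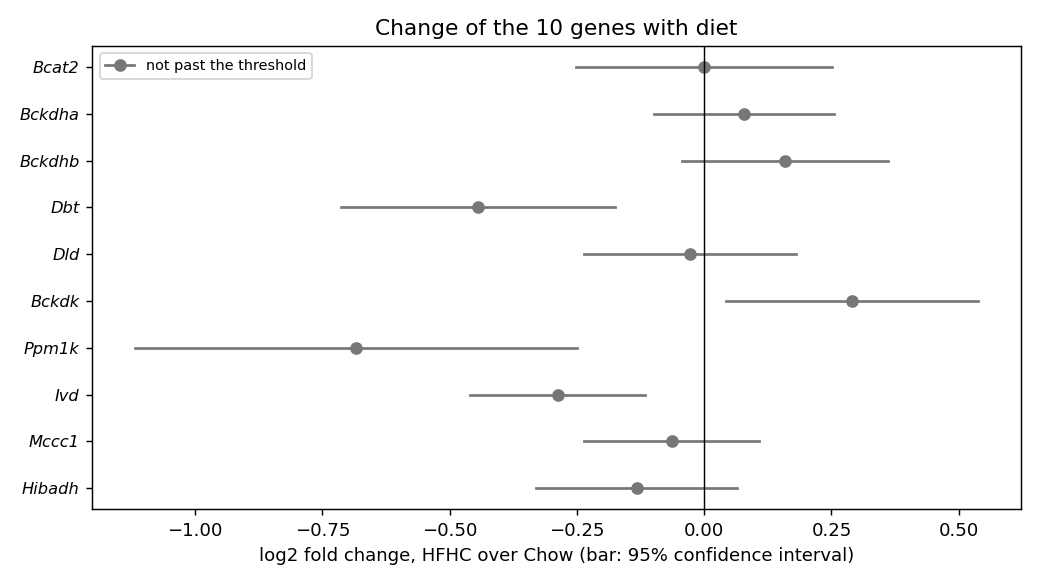
Log2 fold change of each of the 10 genes, HFHC over Chow (points), with its 95% confidence interval (bars). Intervals of Dbt, Ppm1k and Ivd lie below 0 and that of Bckdk above 0 before adjustment, and none of the 10 genes passed an adjusted p of 0.05.

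The kinase and the phosphatase add and remove phosphate on the same subunit, and the stretches just before their starts are shown because the ratio of this opposed pair is compared between the diets. As background and not as a result here, the sugar-responsive factor ChREBP, which binds paired E-boxes, has been described as a regulator of both genes in rodent liver. RefSeq promoter windows were available for 9 of the 10 genes by symbol (build GRCm38.p6), and Dbt had none. The windows below run over the 250 bases before the RefSeq start of Bckdk (chr7:127903823-127904072, plus strand) and of Ppm1k (chr6:57535488-57535737, minus strand), 5′ to 3′ on the gene's strand, and no annotated exon falls in either. Both end just before the RefSeq start, which lies 9 bases (Bckdk) and 19 bases (Ppm1k) upstream of the gene start in GENCODE M21 that is printed with the levels, and distances below are counted from the RefSeq start. Capitals mark CCAAT boxes (CCAAT) and nuclear receptor half-sites (AGGTCA), each searched on both strands.
Bckdk: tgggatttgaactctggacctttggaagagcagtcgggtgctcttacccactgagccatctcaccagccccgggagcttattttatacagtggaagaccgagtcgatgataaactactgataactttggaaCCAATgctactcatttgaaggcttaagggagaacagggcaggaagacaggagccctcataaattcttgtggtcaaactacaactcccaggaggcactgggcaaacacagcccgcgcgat
Ppm1k: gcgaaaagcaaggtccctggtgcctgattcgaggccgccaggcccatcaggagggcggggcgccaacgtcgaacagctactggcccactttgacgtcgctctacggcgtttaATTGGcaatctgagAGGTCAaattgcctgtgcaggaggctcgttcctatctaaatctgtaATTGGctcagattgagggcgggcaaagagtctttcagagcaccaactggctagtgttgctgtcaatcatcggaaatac
The Bckdk window held 1 CCAAT box, starting 119 bases before the start. The Ppm1k window held 2 CCAAT boxes on the reverse strand, at 138 and 78 bases, and between them 1 half-site at 124 bases. Among all 32851 windows of this length 33.8% held CCAAT and 14.0% held AGGTCA. The E-box letters CACGTG were in neither window, nor in that of any of the 9 genes, and in 6.02% of all windows, which says only that these letters are not in these 250 bases.

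Bcat2 encodes the mitochondrial transaminase (chromosome 7, 45570153 to 45589711, plus strand, mm10). Its level was 16.4, 16.6 and 13.7 CPM in HFHC libraries 1, 2 and 3 and 14.2, 15.4 and 17.2 CPM in Chow libraries 7, 8 and 9. The diets overlapped throughout, with means of 15.6 ± 1.60 and 15.6 ± 1.49 CPM. The 95% interval of the log2 difference ran from -0.25 to 0.25 (adjusted p = 0.997, edgeR), a change between -16.1% and 19.0%. An antisense gene, 0610005C13Rik, covers 15.9% of the exonic bases of Bcat2 and had 2985 to 4290 counts per library against 374 to 518 for Bcat2. Whether counting used strand is not given in the sources used here, so the level of Bcat2 is uncertain.

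The dehydrogenase core is made by 4 genes, and in 3 of them the libraries of the diets overlapped. Bckdha, the alpha subunit of the decarboxylase (chromosome 7, 25629946 to 25658981, minus strand), stood at 169.6, 181.2 and 168.0 CPM in HFHC libraries 1, 2 and 3 and at 172.1, 154.0 and 165.1 CPM in Chow libraries 7, 8 and 9. These levels interleaved, and the log2 difference was 0.08 (-0.10 to 0.26, adjusted p = 0.614 by edgeR), or -0.03 with the GC and length trends taken out. The opposite-strand gene B3gnt8 overlaps 61.7% of the exonic bases of Bckdha, and held 6 to 12 counts per library beside 4245 to 5660 for Bckdha. How reads in shared bases were counted is not given in the sources used here, so the level of Bckdha is uncertain as well. Bckdhb, the beta subunit that completes the decarboxylase (chromosome 9, 83925145 to 84124240, plus strand), stood at 49.8, 54.9 and 54.6 CPM in HFHC and at 43.6, 46.5 and 52.6 CPM in Chow. Chow library 9 lay above HFHC library 1, and the log2 difference was 0.16 (-0.04 to 0.36, adjusted p = 0.346, edgeR). Dld, the lipoamide dehydrogenase shared with the pyruvate and oxoglutarate dehydrogenases and glycine cleavage (chromosome 12, 31331277 to 31351453, minus strand), stood at 146.1, 149.9 and 168.6 CPM in HFHC and at 164.0, 142.7 and 167.0 CPM in Chow. Its ranges nearly coincided, with a log2 difference of -0.03 (-0.24 to 0.18, adjusted p = 0.896, edgeR).

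Dbt differed most among the core subunits. It encodes the acyltransferase around which the complex assembles (chromosome 3, 116513070 to 116549981, plus strand). Its level was 88.5, 80.4 and 103.7 CPM in HFHC libraries 1, 2 and 3 and 130.9, 105.9 and 134.1 CPM in Chow libraries 7, 8 and 9. Every HFHC library lay below every Chow library, though HFHC library 3 and Chow library 8 were close. The log2 difference was -0.44 ± 0.12 (SE), a level between 39.0% and 11.4% lower by the 95% interval, and it missed the threshold (adjusted p = 0.0587, edgeR). Dbt was called without HFHC library 3 (adjusted p = 0.0417) or Chow library 8 (0.0226) and with the GC and length trends taken out (0.0473), and its adjusted p ranged from 0.0104 to 0.190 over 13 alternatives.

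**Figure D2:**
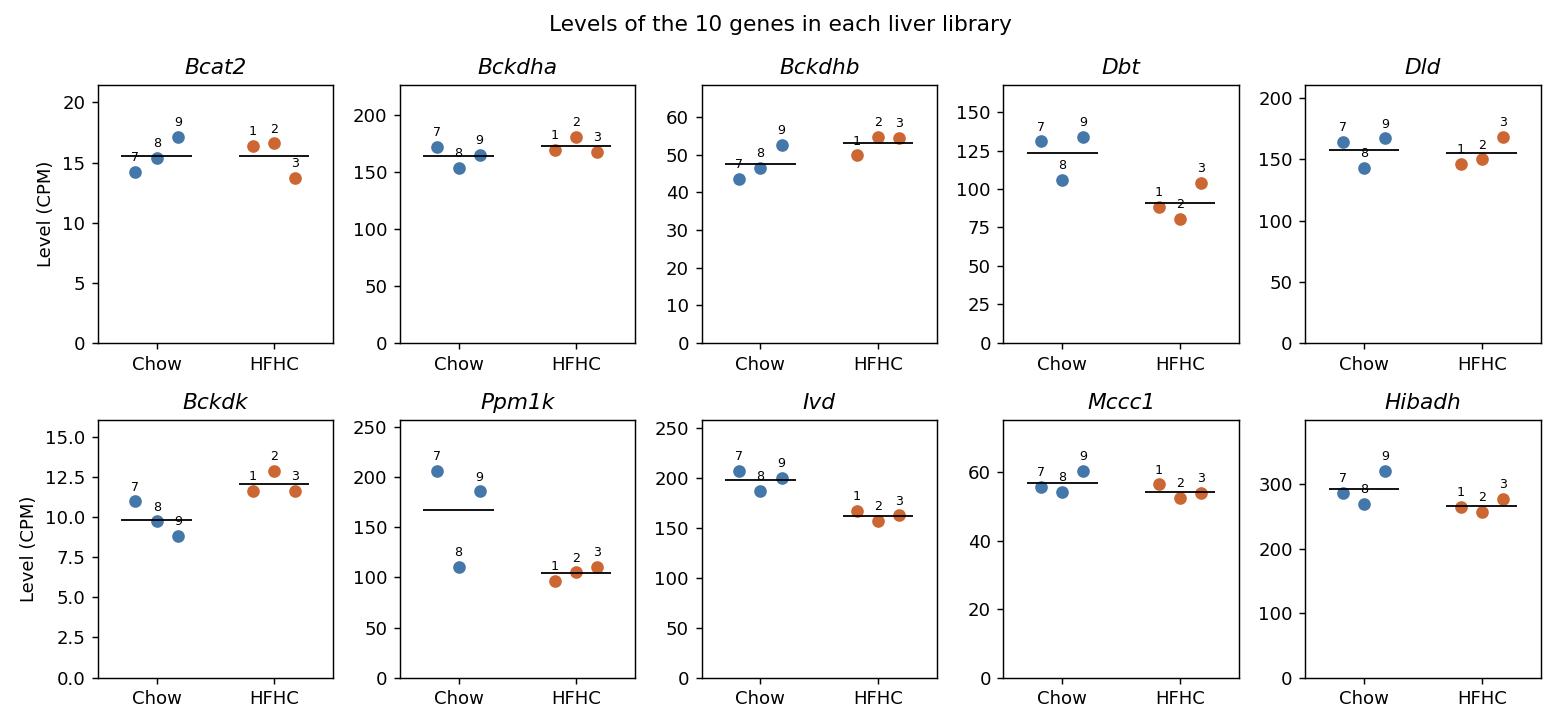
Levels in CPM (vertical axes, each from 0) of the 10 genes by diet. Each point is a liver library with its label number and each line a mean of 3 libraries, and in Ppm1k Chow library 8 sits among the HFHC libraries while Chow libraries 7 and 9 sit well above.

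Bckdk, the inactivating kinase (chromosome 7, 127904082 to 127910221, plus strand), was the scarcest of the 10 transcripts. It stood at 11.6, 12.8 and 11.6 CPM in HFHC libraries 1, 2 and 3 and at 11.0, 9.72 and 8.82 CPM in Chow libraries 7, 8 and 9. Every HFHC library lay above every Chow library by a narrow margin. The log2 difference of 0.29 ± 0.11 did not pass (adjusted p = 0.158, edgeR), and it was not called under any of the 13 alternatives (0.125 to 0.398).

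Ppm1k, the activating phosphatase of the mitochondrial matrix (chromosome 6, 57506502 to 57535468, minus strand), had the largest difference of the 10. Its level was 96.7, 105.1 and 110.7 CPM in HFHC libraries 1, 2 and 3 and 206.0, 110.2 and 185.9 CPM in Chow libraries 7, 8 and 9. The HFHC libraries were alike, whereas Chow library 8 fell within their range and apart from its own group, so the diets overlapped. The log2 difference was -0.68 ± 0.19 (adjusted p = 0.0671, edgeR), with a 95% interval from -1.12 to -0.25. Without Chow library 8 it was -0.91 and was called (adjusted p = 0.00104). Without Chow library 7 it was -0.51 (0.218), and with the GC and length trends taken out -0.52 (0.145). In a principal component analysis of all tested genes the second component, with 16.6% of the variance, set Chow library 8 (30.36) apart from Chow libraries 7 (-11.19) and 9 (-11.94). HFHC libraries lay between -8.28 and 3.58 on that component. The first component, with 46.6% of the variance, split the diets. On it Chow library 8 (-15.64) lay nearer the HFHC libraries (22.52 to 26.86) than Chow libraries 7 (-30.68) and 9 (-25.68) did. The part of these separations in the Ppm1k level was not tested.

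The ratio of Bckdk to Ppm1k counts needs no scaling between libraries. It was 0.120, 0.122 and 0.105 in HFHC libraries 1, 2 and 3 and 0.0532, 0.0882 and 0.0475 in Chow libraries 7, 8 and 9. All HFHC ratios were above all Chow ratios, with Chow library 8 nearest to them. The mean log2 ratio was -3.11 ± 0.12 in HFHC and -4.04 ± 0.48 in Chow (SD, n = 3), a difference of 0.93 or 1.91-fold. A two-sided exact permutation test gave p = 0.1, the smallest that 3 libraries against 3 can give. The difference was 1.2 without Chow library 8, 0.75 without Chow library 9 and 0.69 with the GC and length trends taken out, which a ratio does not remove. Within the core, the ratio of Dbt to Bckdhb counts, chosen after values were seen and so not tested, was 1.78, 1.46 and 1.90 in HFHC libraries and 3.0, 2.28 and 2.55 in Chow libraries. HFHC ratios of acyltransferase to decarboxylase beta subunit were thus all below the Chow ratios. The ratio of Dbt to Bckdha, also chosen after values were seen, was 0.522, 0.444 and 0.617 in HFHC libraries and 0.761, 0.688 and 0.812 in Chow libraries. As the Dbt libraries were themselves separated by diet, both ratios in part restate the Dbt levels.

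**Figure D3:**
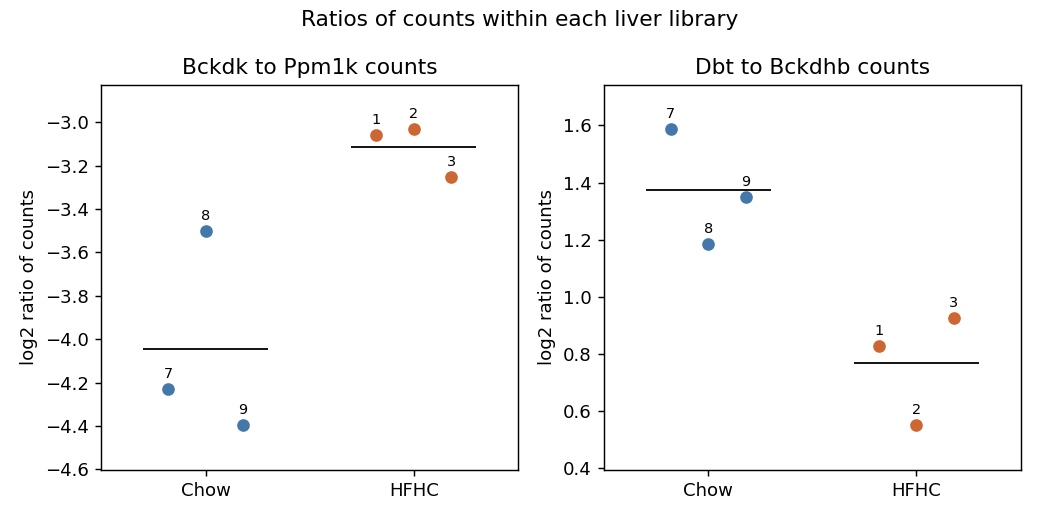
Log2 ratio of Bckdk to Ppm1k counts (left) and of Dbt to Bckdhb counts (right) in each library, with its label number, by diet. Lines are means of 3 libraries, and the ratio on the right was chosen after values were seen and not tested. The kinase to phosphatase ratio averages -3.11 in HFHC and -4.04 in Chow, with Chow library 8 between.

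Past the complex, Ivd, the isovaleryl-CoA dehydrogenase of leucine breakdown (chromosome 2, 118861954 to 118882909, plus strand), was the most uniform within each diet of the genes that came near the threshold. It stood at 166.5, 157.1 and 162.4 CPM in HFHC libraries 1, 2 and 3 and at 206.5, 186.5 and 200.2 CPM in Chow libraries 7, 8 and 9. The diets were separated, with a log2 difference of -0.29 ± 0.08 (adjusted p = 0.0556, edgeR). Leaving out any library did not bring a call (0.0513 to 0.205), and taking out the GC and length trends did (-0.34, adjusted p = 0.0359). Ivd counts were not whole in all 6 libraries, nor were those of Dld in 5, Hibadh in 2 and Dbt in 1, so these levels are uncertain. The called genes of the wider set below share this limit. Their counts were not whole in 6 libraries (Acadsb), 5 (Acat1, Hsd17b10, Pdk1 and Acly) or 4 (Ppara).

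Mccc1, the biotin-carrying subunit of methylcrotonyl-CoA carboxylase, which takes the next oxidative product of leucine (chromosome 3, 35959312 to 36000678, minus strand), stood at 56.5, 52.5 and 53.9 CPM in HFHC and at 55.7, 54.3 and 60.3 CPM in Chow. The diets overlapped, and the log2 difference was -0.06 (-0.24 to 0.11, adjusted p = 0.682, edgeR), or 0.09 with the GC and length trends taken out. Mccc2, its partner subunit, averaged 53.2 ± 4.63 CPM with HFHC and 55.0 ± 3.97 CPM with chow (adjusted p = 0.811, edgeR). Hibadh, the hydroxyisobutyrate dehydrogenase of valine breakdown (chromosome 6, 52546228 to 52640389, minus strand), stood at 264.0, 256.7 and 277.3 CPM in HFHC and at 286.2, 268.6 and 319.7 CPM in Chow. Chow library 8 lay below HFHC library 3, and the log2 difference was -0.13 (-0.33 to 0.07, adjusted p = 0.427, edgeR), or 0.06 with those trends taken out.

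Levels per length, as CPM per kilobase of the principal coding transcript, order the 10 genes within the Chow livers. Hibadh came first (160 ± 14.2), then Bckdha (86.2 ± 4.82), Dld (62.1 ± 5.21) and Ivd (54.0 ± 2.79). Dbt (37.5 ± 4.67), Bckdhb (32.3 ± 3.12) and Ppm1k (30.1 ± 9.09) had overlapping spreads in that order, and Mccc1 (23.1 ± 1.28) overlapped with Ppm1k. Bcat2 (8.79 ± 0.84) and Bckdk (2.89 ± 0.32) were lowest. In HFHC livers Bckdhb (36.1 ± 1.92 CPM per kilobase) stood above Dbt (27.5 ± 3.59), the reverse of their mean order in Chow, and Ppm1k stood at 18.7 ± 1.27, under Mccc1 at 22.1 ± 0.82. The places of Bckdha and Bcat2 are uncertain because other genes overlap them on the opposite strand. The order also rests on which annotated transcript gives the length. With the longest transcript of each gene (6084 against 1825 bases for Hibadh, 6751 against 2455 for Mccc1) Hibadh came after Bckdha, Dld and Ivd, at 47.9 ± 4.26 CPM per kilobase in Chow. Mccc1 then stood at 8.41 ± 0.47 in Chow, near Bcat2 at 7.48 ± 0.72, and at 8.04 ± 0.30 in HFHC, under Ppm1k.

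A wider set of 44 genes around the pathway was also listed, of which 43 were tested and 1, the cytosolic transaminase Bcat1, was not analysed here. Of these 5 were called higher and 1 lower, or 14.0%, against 6.67% of all tested genes, and the median log2 fold change was 0.04. In the leucine list of 4 genes the 1 call was Acat1, the mitochondrial acetoacetyl-CoA thiolase, which leucine breakdown shares with isoleucine breakdown and ketone body synthesis. Acat1 stood at 390.4, 435.7 and 448.7 CPM in HFHC libraries 1, 2 and 3 and at 337.9, 305.4 and 337.3 CPM in Chow libraries 7, 8 and 9. The diets did not overlap, and Acat1 rose by 0.38 ± 0.09 (adjusted p = 0.0351, edgeR). Its call was lost in each fit without HFHC library 2 or 3 or any Chow library (0.0702 to 0.102).

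In the isoleucine and valine list of 6, 1 gene rose and 1 fell, and both act on isoleucine. Hsd17b10, the dehydrogenase of methylhydroxybutyryl-CoA, was 154.6, 179.4 and 182.9 CPM in HFHC and 114.1, 118.1 and 117.2 CPM in Chow. The diets were well apart, with an increase of 0.57 ± 0.09 (adjusted p = 0.00627, edgeR) that was called under all 13 alternatives. Acadsb, the dehydrogenase of short branched-chain acyl-CoAs one step after the complex, was 164.2, 147.8 and 184.1 CPM in HFHC and 235.6, 233.5 and 235.5 CPM in Chow. The Chow libraries were nearly equal, and Acadsb fell by 0.51 ± 0.09 on the log2 scale (adjusted p = 0.0137, edgeR). That call was lost without HFHC library 1 (0.0560) or Chow library 7 (0.0568) and with the GC and length trends taken out (-0.37, adjusted p = 0.0544). The other 4 genes of the list were not called.

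No gene of the propionate list of 6 was called, and the smallest p was that of Mmab, an enzyme that prepares cobalamin (0.42 ± 0.12, adjusted p = 0.0656, edgeR). Mmab was called under 4 of the 13 alternatives: without HFHC library 3 (0.0160), by limma-voom with sample weights (0.0173), by DESeq2 (0.0210) and with upper-quartile size factors (0.0493). None of 6 transport genes was called, including Slc25a44, the mitochondrial carrier of branched-chain amino acids, with means of 80.5 ± 13.2 CPM with HFHC and 65.1 ± 14.7 CPM with chow (adjusted p = 0.334, edgeR). In that list Slc3a2, the heavy chain of amino acid exchangers, had the smallest p (0.26 ± 0.10, adjusted p = 0.153, edgeR).

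Among 10 genes of the other complexes that use Dld, none was called, and the smallest p was that of Dhtkd1, a dehydrogenase of lysine breakdown (-0.27 ± 0.09, adjusted p = 0.0922, edgeR). All 10 of these had 95% intervals within 1.5-fold, as did 9235 of all 14896 tested genes. Of 6 kinases and phosphatases of pyruvate dehydrogenase, relatives of Bckdk and counterparts of Ppm1k, only Pdk1 was called. Its level was 132.4, 137.3 and 126.6 CPM in HFHC and 77.2, 77.6 and 98.6 CPM in Chow. The diets did not overlap, and Pdk1 rose by 0.65 ± 0.11 (adjusted p = 0.00869, edgeR), a call kept under all 13 alternatives.

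The list of 5 regulators, in which the enzyme Acly was also placed, had 2 calls, both higher. Ppara, the fatty acid receptor that controls oxidation genes, rose by 0.76 ± 0.17 from 80.2 ± 5.43 to 136 ± 38.7 CPM (adjusted p = 0.0330, edgeR). Acly, the ATP citrate lyase that Bckdk and Ppm1k have been described to modify as well, rose by 0.93 ± 0.21 from 273 ± 50.5 to 519 ± 151 CPM (adjusted p = 0.0336, edgeR). The call of Ppara was lost without HFHC library 1 (0.0679) or Chow library 7 (0.123) or 9 (0.0814). That of Acly was lost without HFHC library 1 (0.101) or 2 (0.0951) or Chow library 7 (0.119) or 9 (0.0541). Mlxipl, which encodes ChREBP, averaged 304 ± 60.5 CPM with HFHC and 282 ± 15.8 CPM with chow (adjusted p = 0.710, edgeR). Klf15, a regulator of branched-chain amino acid breakdown, was 131.9, 155.9 and 157.2 CPM in HFHC and 173.9, 151.4 and 235.2 CPM in Chow. Chow library 8 lay within the HFHC range, and Klf15 was not called (-0.33 ± 0.15, adjusted p = 0.235, edgeR).

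**Figure D4:**
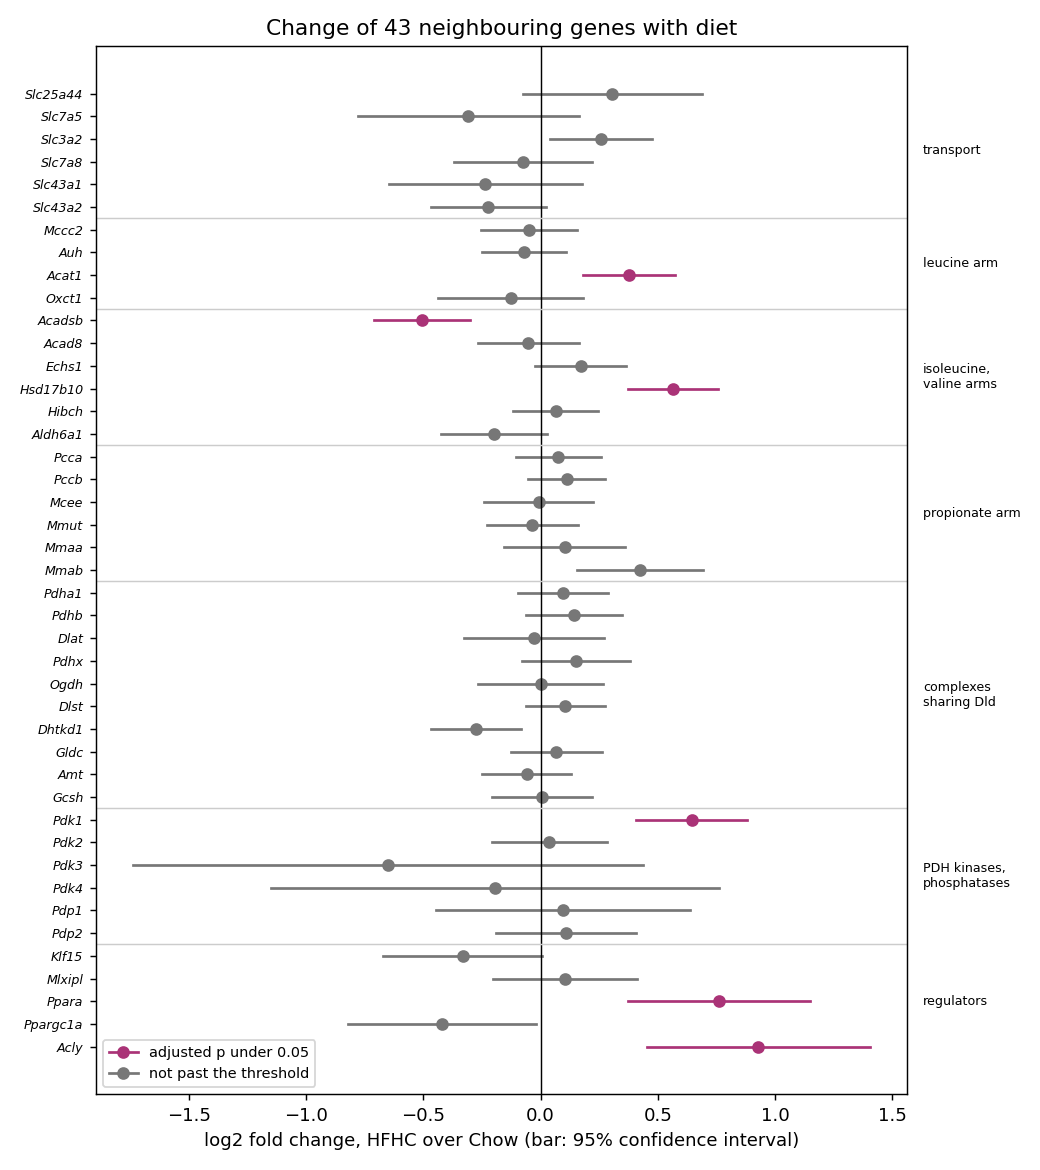
Log2 fold change, HFHC over Chow, of the 43 tested genes around the pathway (points) with 95% confidence intervals (bars), grouped by list. The 6 called genes are coloured, with Acadsb the only one of them below 0.

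Libraries held 26767416 to 27339613 counts in Chow and 30096409 to 30871297 in HFHC, and 1 read stood for 0.0318 to 0.0379 CPM, so each of the 10 genes rested on at least 234 counts per library. All 6 hepatocyte markers were present, with a summed level of 73600 to 76300 CPM in HFHC and 65400 to 84500 CPM in Chow. Of these, Tat and Cps1, genes of amino acid and urea metabolism, fell (-1.0 ± 0.15 and -0.75 ± 0.12). The 6 Kupffer cell markers summed to 171 to 203 CPM in HFHC and 146 to 171 CPM in Chow, with no call. The 6 stellate (193 to 225 and 195 to 235 CPM) and 6 endothelial markers (184 to 202 and 193 to 195 CPM) held no call either. Markers of 3 further types passed the count filter only in part, with no call among 5 tested of 6 cholangiocyte (33.6 to 39.3 and 31.4 to 37.4 CPM), 4 tested of 6 lymphocyte (10.5 to 14.1 and 10.2 to 12.7 CPM) and 1 tested of 3 neutrophil markers in the table (0.859 to 1.31 and 0.617 to 1.06 CPM). Of muscle markers only Mb, at 0 in all 6 libraries, and Actn3, at no more than 0.0725 CPM, were in the table, and the acinar marker Cela1 overlapped between the diets (24.9 to 40.2 and 26.9 to 35.9 CPM). Of adipocyte markers only Cfd was in the table, at 0.382 to 1.70 CPM with HFHC and no more than 0.0377 CPM with chow, the level of 1 read. Cfd was called higher, but it passed the count filter only through its HFHC libraries, so that call carries no weight. The erythroid markers (214 to 248 CPM in HFHC, 203 to 223 CPM in Chow) held 1 call among 3 tested of 4, Hba-a1, higher. The part of these cells in the levels of the 10 genes was not tested.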

How the data were processed

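Per the labels, which name both RNAlater and snap freezing, total RNA from liver was depleted of ribosomal RNA, made into stranded TruSeq libraries and sequenced on a NextSeq500. The submitters' processing notes name STAR 2.7.3a, Partek 9 and mm10. The authors deposited expected counts (estimated counts, 22.4% not whole at a tolerance of 0.01), not normalized. How genes were counted, including strand and annotation, is not given in the sources used here.

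Expected counts were rounded, filtered by filterByExpr (minimum count 10) and fitted on all 14896 genes with edgeR 4.0.16 (TMM, quasi-likelihood F test). SEs are the log2 fold change over the square root of F. The p values rest on the spread among the 3 mice of each diet, which edgeR moderates with the spread of all 14896 genes. A gene's own spread is thus only part of what its p value and interval rest on. Alternatives used DESeq2 1.42.0, limma 3.58.1, other factors, no filter, an adjusted p under 0.01, each library left out, and trends on GC content and length of the longest transcript (GENCODE M21) taken out. R 4.3.3 and Python 3.11.15 were used. Deposited gene ends exceeded those of GENCODE M21 by 1 base in 19942 genes, and that base was removed from printed coordinates. Of the listed genes, 1 (Mmut) matched by synonym.

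All 10 genes were named. From each wider list up to 4 called genes by smallest p were named, or the one with the smallest p, and always Mccc2, Bcat1, Slc25a44 and Klf15. Mlxipl was named outside this rule, after its values were seen. A gene of the wider lists is not reported here. Members and lists were chosen with earlier results of these data known. Tested on simulated data of HFHC against Chow with 14896 genes, the fit called 42 of 81 genes with a 1.5-fold change. It called 50 of 57 with a 2-fold change and 59 of 59 with a 4-fold change, and 8 of its 159 calls were false. The simulation changed 200 genes, gave each gene the spread of the trend over genes and held no deviating library. These shares may therefore not carry over to the data.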

Additional observations from a re-analysis of the deposited data

How the results depend on the processing

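The number of genes called among all tested was 994, and became 1494 by limma-voom with sample weights, 282 at an adjusted p under 0.01 and 361 to 1080 with each library left out. Its split of 503 higher and 491 lower became 595 and 400 with upper-quartile size factors. The count among the 10 genes was 0, and became 3 by DESeq2 and by limma-voom with sample weights, 2 with the GC and length trends taken out, and 0 to 2 with each library left out. In the wider set it was 6, and became 2 at an adjusted p under 0.01 and 2 to 6 with each library left out, the fewest without Chow library 7. The difference in log2 ratio of Bckdk to Ppm1k kept its direction, at 0.75 to 1.2 with each library left out and 0.69 with the trends taken out. Uncalled differences near 0 changed sign with those trends taken out in Bckdha (-0.03), Dld (0.02), Mccc1 (0.09) and Hibadh (0.06), in Dld also without HFHC library 1 (0.02) or Chow library 9 (0.02, range -0.09 to 0.02 over the 6 fits), and in Mccc2 without HFHC library 1 (0.01) or Chow library 7 (0.01, range -0.12 to 0.01). Bcat2 lay between -0.10 and 0.08 over 13 alternatives. The length trend used the longest transcript of each gene, 6751 bases for Mccc1 and 6084 for Hibadh, against 2455 and 1825 bases for the principal one. The sign changes of Mccc1 and Hibadh thus rest on that choice of length too. The cause of the shifts above was not tested. No paired analysis was possible because the labels name no litter or pairing of the mice and the diets share no replicate number. Any difference of litter between the diets could not be told apart from diet. A missed threshold with 3 libraries per diet does not show that levels were equal.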
